A study of Rattus norvegicus with 10 samples.

Results

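The genes described here encode the receptors for noradrenaline and adrenaline, for serotonin (5-HT) and for acetylcholine. They were taken by gene symbol from the count table: the α1 and β adrenergic receptors with the α2 receptors Adra2a and Adra2b, the serotonin receptors that signal through G proteins (Htr1a to Htr7) with the ion channel subunit Htr3b, the muscarinic receptors (Chrm1 to Chrm5) and the nicotinic subunits (names that begin with Chrn). This gave 41 of the 32545 genes in the table. The rule used no measured value. It did not take every gene of these families, and the α2 receptor Adra2c, which is in the table, is among those it left out.

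The tissue was the CA1 region of the hippocampus, microdissected from slices of male Wistar rats aged 5 to 7 weeks. The study asked whether TTK21, a compound that activates the acetyltransferases CBP and p300 and is carried into the slice on a carbon nanosphere made from glucose (CSP), alters the transcription that follows amyloid β exposure. The 5 groups, with 2 libraries each, were CSP-TTK21, SKF, SKF+Aβ, and SKF+Aβ with either empty nanospheres (SKF+Aβ+CSP) or loaded ones (SKF+Aβ+CSP-TTK21). SKF is an agonist of the dopamine D1 and D5 receptors, used to activate synapses throughout the slice, and Aβ is the oligomeric Aβ(1-42) peptide at 200 nM. CSP is the empty nanosphere, the control for CSP-TTK21, and both were used at 0.36 µg/ml. The CSP-TTK21 group received the loaded nanospheres with neither SKF nor Aβ, so it differs from SKF in both agents at once. Slices had 30 min of basal stimulation and were collected 1 h after treatment. Each library pooled 2 slices from 2 biological samples, so the p-values measure the spread between such pools. The untreated group of the study was not analysed here.

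Noradrenaline, serotonin and acetylcholine reach CA1 through long axons from the locus coeruleus, the raphe nuclei and the medial septum, and set how readily its synapses are strengthened. The adrenergic and muscarinic receptors and most serotonin receptors signal through G proteins: the Gs-coupled members raise cyclic AMP, as the D1 and D5 receptors do, the Gi-coupled members lower it, and the Gq-coupled members activate phospholipase C. Nicotinic receptors and the serotonin channel are ion channels built from several subunits. In bulk tissue, fewer cells of a type and less RNA per cell cannot be told apart.

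The libraries held 6753742 to 8473407 counted reads, so that 3 counts corresponded to between 0.354 and 0.447 CPM, the count of a gene scaled to a common library size. Levels below are such CPM, with library sizes corrected by edgeR's TMM factors. They are compared between libraries for 1 gene at a time, since no exon length was at hand to compare genes. The CA1 markers Wfs1 and Mpped1 were present in all 10 libraries, whereas Fibcd1 was listed at 0 in each. Markers of the neighbouring dentate gyrus were present as well, with Prox1 between 142 and 248 CPM. The summed CA1 markers ranged from 261 to 556 CPM and were highest in SKF+Aβ+CSP-TTK21 replicate 1 and SKF+Aβ replicate 1, at 556 and 542 CPM. The part of tissue composition in the results below was not tested.

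Of the 41 receptor genes, 30 were measurable, which means that they passed edgeR's filter on low counts. Of the genes the rule took, these were 6 of 8 adrenergic receptors, 11 of 12 G protein-coupled serotonin receptors, all 5 muscarinic receptors and 8 of 15 nicotinic subunits. A stricter limit of at least 10 counts in every library left 24. Another 5 genes were detected at low counts: the α2 receptor Adra2b, the Gi-coupled Htr1d and the nicotinic subunits Chrna1, Chrna10 and Chrnb4 reached between 4 and 12 counts in their highest library.

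The remaining 6 genes had at most 1 count in any library. They were Adrb3, the β receptor known from fat tissue, Htr3b, an accessory subunit of the serotonin channel, Chrna6 and Chrnb3, which belong to receptors on dopamine axons, Chrna9 of the inner ear and Chrnd of muscle. Their counts summed to between 1 and 5 over the 10 libraries, which is not above the 3 counts per library that a count of 0 allows. For these genes no comparison between groups was possible at these counts. Fibcd1, Npy and Cldn5, which hippocampal tissue is known to express, were also listed at 0 in every library. Whether the low counts of the receptor genes arose in the counting was not tested.

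**Figure D1:**
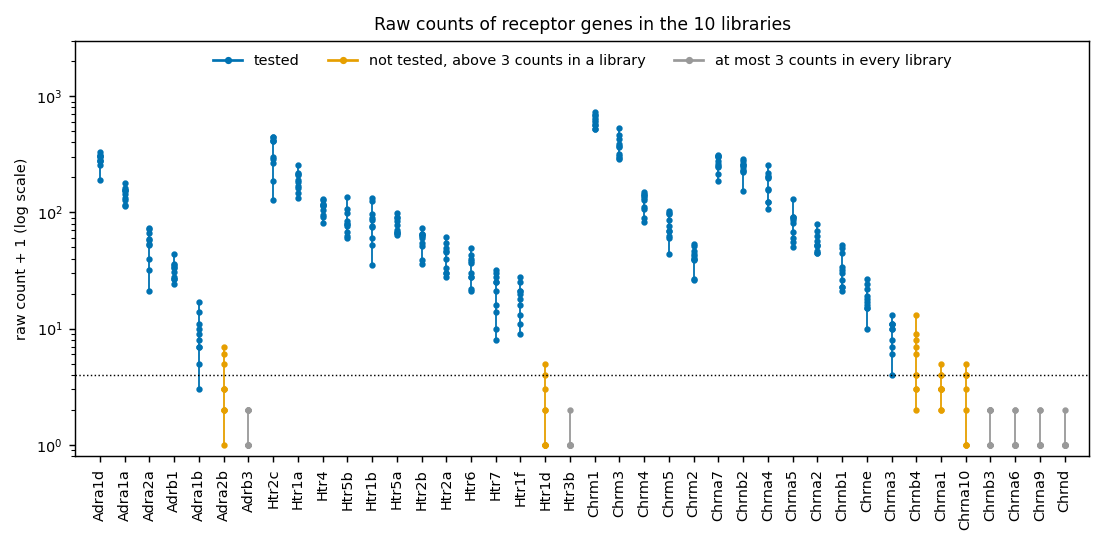
Raw count plus 1 (log scale) of 40 of the receptor genes in each of the 10 libraries, by family and total count, with the dotted line at 3 counts. The 29 tested genes shown have totals of 81 to 6120 counts, and the 6 grey genes never exceed 1 count.

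No receptor gene was called in any comparison. None passed an adjusted p of 0.05 (edgeR quasi-likelihood test, adjusted over the 15032 genes tested) for any difference among the 5 groups, and none in the 7 comparisons of pairs of groups. Over all genes tested, edgeR called 0.00665% for any difference among the groups and 0% in 4 of the 7 comparisons. It called 2.08% when SKF+Aβ was compared with SKF. Against the same SKF libraries it called 0.0200% with CSP added and 0.00665% with CSP-TTK21 added. The 4 comparisons with SKF share its libraries.

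DESeq2 called 0 receptor genes as well, but could not call all of them. For any difference among the groups 19 of the 30 receptor genes had no adjusted p in DESeq2. In the comparisons of SKF+Aβ, SKF+Aβ with CSP and SKF+Aβ with CSP-TTK21 with SKF this held for 17, 19 and 21 of them, with Htr2b among them each time. Of all genes with an adjusted p, DESeq2 called 4.33% for any difference among the groups, and 8.62%, 5.12% and 4.11% in those 3 comparisons. In the comparison of CSP-TTK21 with SKF it called 0.0200%. Between the Aβ groups it called 0.00665% for the addition of CSP, 0% for the addition of CSP-TTK21 and 0.165% for loaded against empty nanospheres, where 6 receptor genes had no adjusted p.

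At an unadjusted p under 0.05, few receptor genes stood out. For any difference among the 5 groups there was 1 of 30, Htr2b, where 14.3% of all genes tested reached that level. SKF+Aβ against SKF also gave 1, Htr2b, beside 22.8% of all genes. SKF+Aβ+CSP against SKF gave 3, namely Htr2b, Chrm1 and Chrna2, beside 19.3%. SKF+Aβ+CSP-TTK21 against SKF gave 2, with Htr2b among them, beside 19.6%. CSP-TTK21 against SKF gave 1, again Htr2b, beside 7.78%. Against SKF+Aβ, the addition of CSP gave 0 beside 2.18%, and the addition of CSP-TTK21 gave 0 beside 6.59%. The loaded against the empty nanospheres gave 1 beside 8.78%. The counts lie near or below the share of all genes in each comparison. The libraries of the compared groups did not overlap for 6, 11, 12 and 8 of the 30 genes in the 4 comparisons with SKF, in the same order, beside 49.6%, 52.4%, 50.5% and 36.1% of all genes tested.

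The median log2 fold change of the 30 genes against SKF was -0.00 in SKF+Aβ, beside an all-gene median of -0.00. With CSP added it was -0.01 beside 0.00, with CSP-TTK21 added it was 0.10 beside -0.01, and in CSP-TTK21 alone it was 0.02 beside 0.00. By family, the medians in these 4 comparisons were -0.21, -0.12, -0.26 and -0.01 for the 6 adrenergic receptors and 0.07, -0.05, 0.18 and 0.03 for the 11 serotonin receptors. They were 0.36, 0.19, 0.34 and -0.13 for the 5 muscarinic receptors and -0.01, 0.19, -0.00 and 0.17 for the 8 nicotinic subunits. The median of 0.10 was -0.04 without SKF replicate 2 and 0 with no filter on low counts. Leaving out 1 library turned the sign of the other 3 receptor medians too, with ranges of -0.17 to 0.25, -0.14 to 0.18 and, in CSP-TTK21, -0.04 to 0.21. Receptor genes were split evenly in direction, with 15 higher and 15 lower in SKF+Aβ. The 95% limits of the log2 fold change were not adjusted for the number of genes. They were within ±1 log2 unit, a change of 2-fold, for 108 of the 210 gene and comparison pairs. They stayed within it in all 7 comparisons for 10 genes: Adra1a, Adra1d, Chrm1, Chrm3, Chrm4, Chrna7, Chrnb2, Htr1a, Htr4 and Htr5a. For the other 20 measurable genes a change of 2-fold was not excluded by the limits in at least 1 comparison. The median half-width was 0.829 log2 units for adrenergic, 0.798 for serotonin, 0.613 for muscarinic and 0.666 for nicotinic genes.

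**Figure D2:**
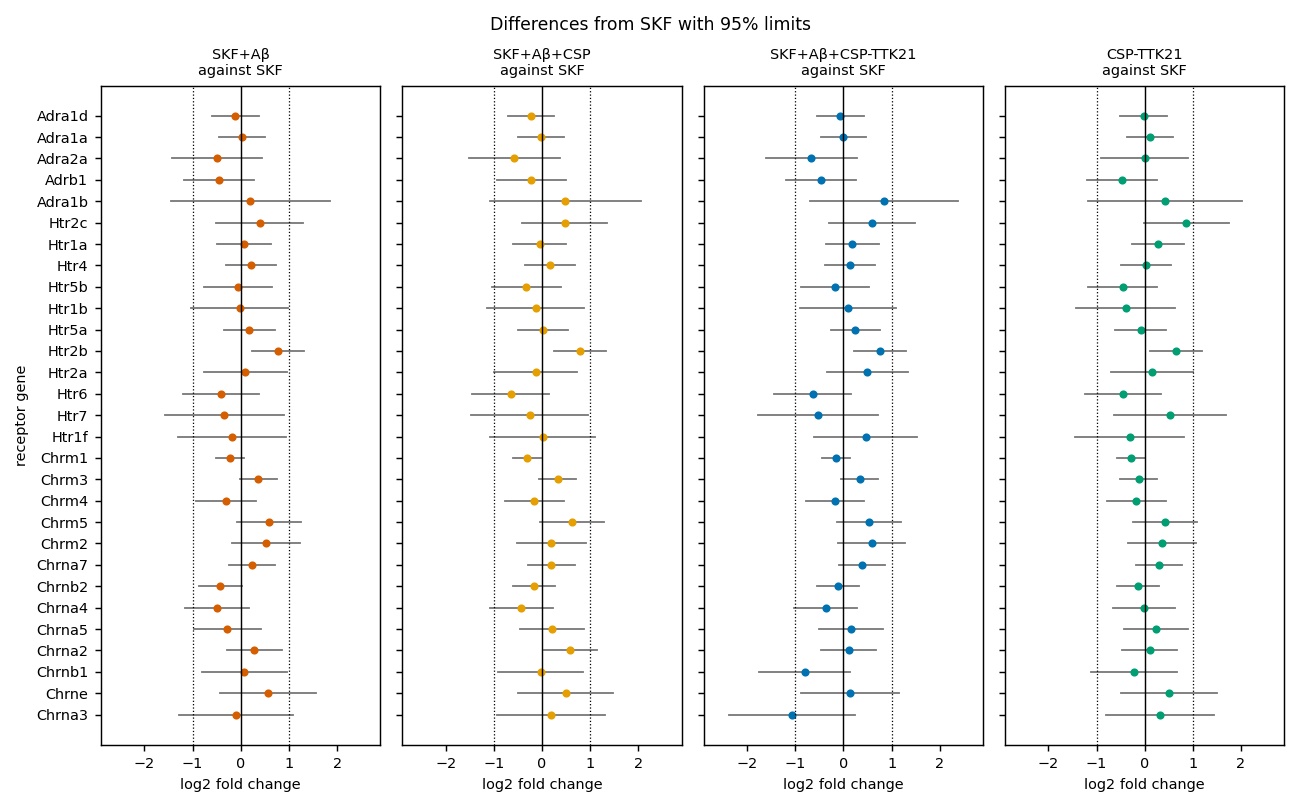
Log2 fold change against SKF of 29 measurable receptor genes in the 4 other groups, with points for the edgeR estimates, lines for their 95% limits and dotted lines at a change of 2-fold. Htr2b lies above 0 with its limits in all 4 panels, and no gene passes the adjusted p.

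Among the serotonin receptors, Htr2b was lower in SKF than in every other group. It encodes a Gq-coupled receptor best known from heart valves and blood vessels. Its level was 5.25 and 4.67 CPM in SKF, 8.94 and 8.05 CPM in SKF+Aβ, and 8.51 and 8.65 CPM in SKF+Aβ+CSP. The SKF+Aβ+CSP-TTK21 libraries had 7.93 and 8.98 CPM, and the CSP-TTK21 libraries had 7.03 and 8.55 CPM. Both SKF libraries were below all 8 others, a pattern that 9.58% of all genes tested shared and that no other receptor gene showed.

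The log2 fold change of Htr2b against SKF was 0.77 ± 0.25 (SE) in SKF+Aβ, with adjusted p = 0.0988 in edgeR. It was 0.79 ± 0.25 with CSP added, with adjusted p = 0.127. It was 0.77 ± 0.25 with CSP-TTK21 added, with adjusted p = 0.144. In CSP-TTK21, the group without Aβ, it was 0.65 ± 0.25, with adjusted p = 0.633. The 3 Aβ groups lay close to one another, with log2 differences of 0.01, -0.01 and -0.02 and standard errors of 0.24.

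The values of Htr2b rest on 35 to 72 counts per library. In the RefSeq annotation of the rat Htr2b lies within Psmd1, a proteasome subunit gene on the opposite strand, and the sources used here do not state whether the counting used strand. Psmd1 was at 174 and 177 CPM in SKF and between 177 and 216 CPM in the other 8 libraries. Its log2 fold changes against SKF were 0.22, 0.16, 0.14 and 0.11, in the same order of groups, with adjusted p between 0.304 and 0.834. How much of the Htr2b count came from Psmd1 was not tested.

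Htr2c, the Gq-coupled receptor with the most counts of the serotonin family, had its widest gap between replicates in SKF+Aβ. Its level was 25.4 and 38.6 CPM in SKF, 17.9 and 66.3 CPM in SKF+Aβ, 49.7 and 38.6 CPM in SKF+Aβ+CSP, 38.5 and 58.3 CPM in SKF+Aβ+CSP-TTK21, and 57.4 and 59.5 CPM in CSP-TTK21. The lowest and the highest of the 10 libraries were therefore the replicates of SKF+Aβ. CSP-TTK21 was above both SKF libraries, with a log2 fold change of 0.87 ± 0.41 (SE) and adjusted p = 0.647 in edgeR. Fitted with no filter on low counts, Htr2c passed in this comparison and in the test across the 5 groups, the only calls of a receptor gene under any setting tried. That setting called 0.622% of all genes in the comparison and 5.55% in the test across the groups.

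None of the Gi-coupled serotonin receptors passed the test. Htr1a, the main inhibitory receptor on pyramidal cells, ranged from 18.3 to 33.8 CPM. Htr1b, which sits on axon terminals and limits release, ranged from 4.54 to 16.7 CPM and spanned 13.5 and 4.54 CPM within CSP-TTK21 alone. Htr1f ranged from 1.12 to 3.85 CPM, and the related Htr5a and Htr5b from 8.71 to 13.4 and from 8.16 to 18.2 CPM. The highest and the lowest level of Htr5b were the 2 libraries of SKF.

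The Gs-coupled serotonin receptors, which share the cyclic AMP pathway with the D1 receptors that SKF activates, did not pass either. Htr4 had 11.3 to 17.3 CPM, and its limits were within a 2-fold change in all 7 comparisons. Htr6 was at 5.39 and 6.41 CPM in SKF and at 2.98 to 5.87 CPM elsewhere. Htr7 was highest in CSP-TTK21, at 4.36 and 3.88 CPM, and both values lay above the other 8 libraries, an order that 1.14% of all genes tested shared. Htr7 had 27 and 15 counts in SKF. Against SKF, the log2 fold change of Htr7 was 0.52 ± 0.54 (SE) with adjusted p = 0.812. Htr2a, the third Gq-coupled serotonin receptor, ranged from 3.77 to 8.70 CPM.

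**Figure D3:**
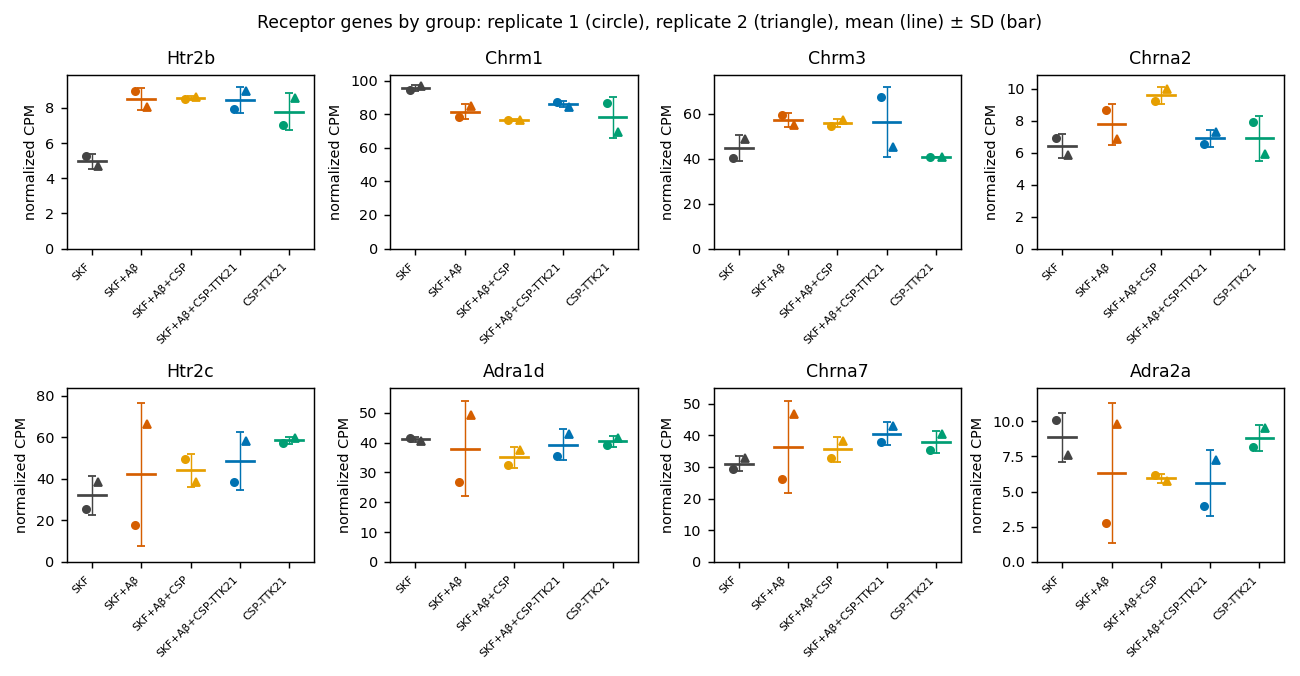
Normalized CPM of 8 receptor genes in the 5 groups, with circles for replicate 1, triangles for replicate 2, lines for group means and bars for ± SD (n = 2). Htr2b is lowest in both SKF libraries, whereas Htr2c, Adra1d, Chrna7 and Adra2a have their widest gap between the replicates of SKF+Aβ.

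Of the adrenergic family, the Gq-coupled α1 receptor Adra1d had the most counts. It was at 41.6 and 40.6 CPM in SKF, 26.7 and 49.3 CPM in SKF+Aβ, 32.6 and 37.5 CPM in SKF+Aβ+CSP, 35.7 and 43.1 CPM in SKF+Aβ+CSP-TTK21, and 39.1 and 41.7 CPM in CSP-TTK21. The SKF+Aβ libraries again enclosed all others. Its log2 fold changes against SKF were between -0.23 and -0.02. Adra1a, at 15.9 to 23.1 CPM, and the sparser Adra1b, at 2 to 16 counts per library, did not pass in any comparison.

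Adra2a, a Gi-coupled α2 receptor, was at 10.1 and 7.61 CPM in SKF and at 2.79 and 9.84 CPM in SKF+Aβ. It was at 6.14 and 5.72 CPM in SKF+Aβ+CSP, 3.96 and 7.27 CPM in SKF+Aβ+CSP-TTK21, and 8.16 and 9.49 CPM in CSP-TTK21. Both groups with Aβ and nanospheres lay below both SKF libraries, with log2 fold changes of -0.57 ± 0.43 (SE, adjusted p = 0.501) and -0.66 ± 0.44 (adjusted p = 0.421). SKF+Aβ, which had no nanospheres and overlapped SKF, had a similar estimate of -0.50 ± 0.44 (adjusted p = 0.522 in edgeR).

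Adrb1, a β receptor that acts through Gs and cyclic AMP, was at 5.94 and 4.54 CPM in SKF and at 3.07 to 5.13 CPM in the other libraries.

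Chrm1, the main Gq-coupled muscarinic receptor of pyramidal cells, had the most counts of all 41 genes. It was at 94.4 and 96.7 CPM in SKF, 78.4 and 84.7 CPM in SKF+Aβ, 76.3 and 76.8 CPM in SKF+Aβ+CSP, 87.3 and 84.5 CPM in SKF+Aβ+CSP-TTK21, and 86.8 and 69.6 CPM in CSP-TTK21. Both SKF libraries were above all 8 others, the reverse of Htr2b, and 7.48% of all genes tested had that order. The log2 fold change of Chrm1 against SKF was -0.32 ± 0.14 (SE) in SKF+Aβ+CSP, with adjusted p = 0.224 in edgeR. In the other 3 groups it was -0.23, -0.15 and -0.29, with adjusted p of 0.330, 0.557 and 0.642.

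The other Gq-coupled muscarinic receptors and the Gi-coupled Chrm2 had higher estimates in the Aβ groups than in SKF, without passing the test. Chrm3 was at 40.5 and 48.7 CPM in SKF, 59.4 and 55.1 CPM in SKF+Aβ, 54.7 and 57.0 CPM in SKF+Aβ+CSP, 67.5 and 45.3 CPM in SKF+Aβ+CSP-TTK21, and 40.8 and 40.9 CPM in CSP-TTK21. SKF+Aβ and SKF+Aβ+CSP lay above both SKF libraries, whereas SKF+Aβ+CSP-TTK21 overlapped them. The log2 fold changes were 0.36, 0.32 and 0.34 in the Aβ groups, each with a standard error of 0.18, and -0.13 in CSP-TTK21. The adjusted p of Chrm3 in these 4 comparisons was 0.250, 0.342, 0.313 and 0.868.

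Chrm5 was at 5.94 and 9.08 CPM in SKF and between 8.24 and 14.5 CPM elsewhere. Its log2 fold changes were 0.59, 0.62 and 0.54 in the Aβ groups and 0.43 in CSP-TTK21, with an adjusted p of at least 0.276. In the annotation it overlaps Aven. The Gi-coupled Chrm2 ranged from 3.34 to 6.86 CPM, and Chrm4 from 11.3 to 21.1 CPM. Against SKF, the log2 fold changes of Chrm2 were 0.52, 0.19 and 0.59 in the Aβ groups and 0.35 in CSP-TTK21. Those of Chrm4 were -0.31, -0.16, -0.17 and -0.18, with an adjusted p of at least 0.332 in edgeR for both genes.

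Chrna7, which forms the homomeric α7 receptor that binds Aβ, led the nicotinic subunits in counts. It was at 29.3 and 32.7 CPM in SKF, 26.1 and 46.6 CPM in SKF+Aβ, 32.7 and 38.3 CPM in SKF+Aβ+CSP, 38.0 and 43.1 CPM in SKF+Aβ+CSP-TTK21, and 35.5 and 40.4 CPM in CSP-TTK21. All groups with nanospheres, empty or loaded, lay above both SKF libraries, the empty ones by a narrow margin. In the same order their log2 fold changes were 0.19 ± 0.22 (SE, adjusted p = 0.682), 0.38 ± 0.22 (adjusted p = 0.353) and 0.29 ± 0.22 (adjusted p = 0.746). SKF+Aβ, which had no nanospheres, had 0.23 ± 0.22 (adjusted p = 0.571 in edgeR), more than SKF+Aβ+CSP.

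The subunits of the common heteromeric receptor, Chrna4 and Chrnb2, had their lowest group mean in SKF+Aβ. Chrnb2 was at 40.0 and 33.9 CPM in SKF and at 21.2 and 33.8 CPM in SKF+Aβ, and Chrna4 was at 35.3 and 21.1 CPM in SKF and at 17.0 and 23.0 CPM in SKF+Aβ. For both genes the widest gap between replicates exceeded the range of the group means. Chrna4 overlaps Col20a1 in the annotation. Chrna5, an accessory subunit, ranged from 6.84 to 15.4 CPM.

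Chrna2, a subunit of a class of interneurons in stratum oriens, was at 6.91 and 5.87 CPM in SKF and at 9.22 and 9.97 CPM in SKF+Aβ+CSP. The other 6 libraries lay between 5.88 and 8.66 CPM, so both SKF+Aβ+CSP libraries were above all others, as in 1.89% of all genes tested. The log2 fold change of Chrna2 was 0.58 ± 0.26 (SE), with adjusted p = 0.237 in edgeR. It was named after its values were seen.

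Chrna3, the ganglionic subunit, was at 3 and 5 counts in SKF+Aβ+CSP-TTK21 and at 6 to 12 counts in the other libraries. Of all genes tested, 3.44% had both of these libraries below the other 8 in CPM, and Chrna3 was among them. Its log2 fold change against SKF was -1.07 ± 0.61 (SE), with adjusted p = 0.343. Chrnb1 and Chrne, subunits of the muscle receptor, had 20 to 51 and 9 to 26 counts. In the annotation Chrnb1 overlaps Zbtb4 and Chrne overlaps Gp1ba. Whether reads of the overlapping genes entered their counts was not tested. Of the 30 measurable genes, 15 overlap another annotated gene, though some of them, such as Htr2c and Chrna5, overlap only non-coding RNA genes or pseudogenes. The share over all genes was not taken.

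The spread between replicates was wide in at least 1 group for most receptor genes. For 26 of the 30 measurable genes, or 86.7%, the largest gap between the 2 libraries of a group exceeded the range of the 5 group means on the log2 scale, beside 57.0% of all genes tested. The exceptions were Chrm1, Chrna2, Chrna3 and Htr2b. Set against the mean gap over the 5 groups instead, the range of the group means was the larger for 20 of the 30 genes, or 66.7%, beside 86.9% of all genes tested. The widest gap lay in SKF+Aβ for 13 of the 30 genes, where 25.3% of all genes tested had it.

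SKF+Aβ replicate 1 was the lowest of the 10 libraries for 12 of the 30 genes, where 13.5% of all genes tested were lowest in it. The 12 were Adra1a, Adra1d, Adra2a, Chrm4, Chrna5, Chrna7, Chrnb2, Htr1a, Htr1f, Htr2a, Htr2c and Htr7. SKF+Aβ replicate 2 exceeded replicate 1 by more than 1.5 times in 11 of the 30, or 36.7%, against 7.32% of all genes. The median ratio of replicate 2 to replicate 1 was 1.30 for the receptor genes and 0.997 for all genes tested.

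Of the 9 interneuron markers, 5 were also lowest in SKF+Aβ replicate 1, among them Sst at 15.9 CPM and Slc32a1 at 18.2 CPM, whereas Gad1, Gad2 and Ndnf were not, and Npy was listed at 0 in every library. The sum of the interneuron markers was 409 CPM there and 420 to 599 CPM in the other libraries. Of the CA1 markers, Wfs1 was highest in that library, at 372 CPM, whereas Mpped1 was at 149 CPM there, near the low end of its range of 147 to 215 CPM. The summed dentate gyrus markers were highest in that library too, at 301 CPM beside 198 to 278 CPM in the others. Of these, Prox1 was highest there, at 248 CPM, whereas C1ql2 was at 49.2 CPM, within its range of 36.9 to 58.1 CPM. Dsp and Lct, at 3.63 and 0.978 CPM, were not highest there either. The part of tissue composition in this gap was not tested. Without replicate 1, 5 of 31 receptor genes had an unadjusted p under 0.05 in SKF+Aβ against SKF, beside 16.8% of all genes tested. Without replicate 2 there were 7 of 31, beside 21.0%, and 0 passed the adjusted p both times. For any difference among the groups, 6 of 31 reached that level without replicate 2, beside 16.5% of all genes. The median log2 fold change of the 31 genes was 0.25 without replicate 1 and -0.17 without replicate 2.

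**Figure D4:**
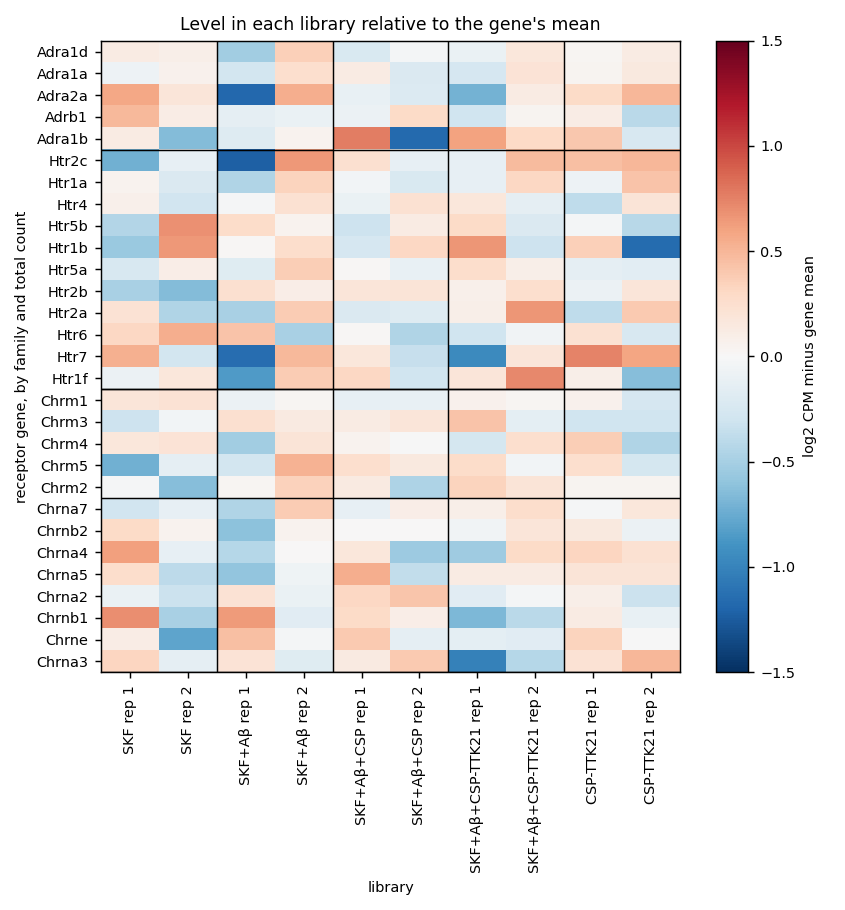
Log2 CPM of 29 measurable receptor genes in each library minus the mean of the gene, with colours from -1.5 (blue) to 1.5 (red), rows ordered by family and columns by group. The column of SKF+Aβ replicate 1 holds the lowest value of 12 genes, and replicate 2 beside it holds the highest of 7.

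Genes that act with these receptors were examined by the same test. Of the genes for making, moving and breaking down the transmitters, 10 of 17 were tested. All 9 nicotinic assembly and modulator genes were tested, with 22 of 23 G protein subunits, 22 of 23 effectors and 21 of 22 receptor kinases, arrestins and RGS proteins. The G protein subunits Gng5 and Gnas each had more than 1 row in the table. The adjusted p passed 0.05 for 1 of these 84 genes in 1 comparison, Kcnj3, which rose in SKF+Aβ against SKF, where 2.08% of all genes tested passed. No gene of these lists was called lower.

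Kcnj3 encodes GIRK1, the potassium channel subunit that Gi-coupled receptors such as Htr1a and Chrm2 open through G protein βγ subunits. It was at 58.2 and 60.5 CPM in SKF, 94.7 and 94.0 CPM in SKF+Aβ, 83.4 and 81.6 CPM in SKF+Aβ+CSP, 105 and 90.5 CPM in SKF+Aβ+CSP-TTK21, and 82.0 and 77.5 CPM in CSP-TTK21. Both SKF libraries were below all others. The log2 fold change of Kcnj3 in SKF+Aβ was 0.67 ± 0.13 (SE), with adjusted p = 0.0355 in edgeR.

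In the other groups the log2 fold change of Kcnj3 against SKF was 0.48 (adjusted p = 0.0962), 0.72 (adjusted p = 0.0800) and 0.43 (adjusted p = 0.633), each with a standard error of 0.13. The call in SKF+Aβ held in DESeq2 (adjusted p = 0.00208) and in the edgeR fits with the replicate block, RLE size factors, no filter or at least 10 counts in every library (adjusted p of 0.00725 to 0.0359). It did not hold in a fit on the compared libraries alone, with adjusted p = 0.0951, and was lost in 6 of the 10 fits that left out a library. The highest adjusted p of those fits was 0.147. In SKF+Aβ+CSP-TTK21 against SKF, Kcnj3 passed in 4 of the alternatives, among them DESeq2 (adjusted p = 0.00218) and the replicate block (adjusted p = 0.0397).

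Adcy4, an adenylyl cyclase known from vessels and one of the effectors of these receptors, was lowest in SKF+Aβ+CSP-TTK21. It was at 6.22 and 2.40 CPM in SKF, 5.08 and 4.84 CPM in SKF+Aβ+CSP, and 1.28 and 0.713 CPM in SKF+Aβ+CSP-TTK21. In SKF+Aβ it was at 4.05 and 1.94 CPM, and in CSP-TTK21 at 3.09 and 1.34 CPM. Its log2 fold change in SKF+Aβ+CSP-TTK21 was -2.28 ± 0.59 (SE) against SKF+Aβ+CSP, with adjusted p = 0.510 in edgeR. In the SKF+Aβ+CSP-TTK21 libraries 3 counts corresponded to 0.384 and 0.428 CPM, so the levels of Adcy4 there rest on few counts. The summed endothelial markers, of which only Flt1 and Cdh5 had counts, were 130 and 68.8 CPM in SKF, 89.5 and 71.2 CPM in SKF+Aβ, and 132 and 101 CPM in SKF+Aβ+CSP. They were 49.3 and 52.9 CPM in SKF+Aβ+CSP-TTK21 and 84.1 and 62.6 CPM in CSP-TTK21, so that both SKF+Aβ+CSP-TTK21 libraries were lowest in these markers too. Cldn5, the endothelial tight junction gene, was listed at 0 in every library. The part of vessel content in the level of Adcy4 was not tested.

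Other genes of these lists had an unadjusted p under 0.01 against SKF without passing the adjusted p. The share of all genes at that level was not taken. At an unadjusted p under 0.05, edgeR gave 22.8% in SKF+Aβ, 19.3% with CSP added, 19.6% with CSP-TTK21 added and 7.78% in CSP-TTK21. Slc18a2, the vesicular monoamine transporter, had a log2 fold change of 0.91 ± 0.28 (SE, adjusted p = 0.0907) in SKF+Aβ. It was at 33.1 and 17.0 CPM in SKF+Aβ and at 14.5 and 12.3 CPM in SKF, and without SKF+Aβ replicate 1 the log2 fold change of Slc18a2 was 0.33. Ly6h, which holds back α7 receptors, had -0.69 ± 0.18 (adjusted p = 0.0623) in SKF+Aβ and -0.70 ± 0.18 (adjusted p = 0.0893) in SKF+Aβ+CSP. Ric3, a chaperone of nicotinic receptors, had 0.54 ± 0.17 (adjusted p = 0.134) in SKF+Aβ+CSP-TTK21. The G protein subunit Gnb2 had -0.48 ± 0.13 (adjusted p = 0.0634) in SKF+Aβ, and Plcb1, the phospholipase C downstream of Chrm1, had 0.43 ± 0.13 (adjusted p = 0.0817). In SKF+Aβ+CSP, Gnb2 had -0.51, and the phospholipase C genes Plcb3 and Plcb4 had -0.57 and 0.46. Plcb3 had -0.52 and Bche 0.69 in SKF+Aβ+CSP-TTK21. Gnai2 had -0.42 and Rgs16 -0.71 in SKF+Aβ, and Rgs17 had 0.50 in CSP-TTK21.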

How the data were processed

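Total RNA of 10 libraries was sequenced as 150 bp paired-end reads after ribosomal RNA depletion with a stranded kit. The deposited table holds raw read counts per Ensembl rat gene, made by the authors. The study's methods name Trim Galore, Samtools rmdup, TopHat2 and Cufflinks, and both Rnor_6.0 and mm10, whereas the submitters' processing notes name STAR, RSEM, HISAT2, Salmon and GRCh38. Which of these made the counts, and whether strand was used, is not given in the sources used here. Removing duplicates lowers counts of abundant genes most. The authors' pipeline tested with Cuffdiff and a limit on the fold change, which is an alternative here.

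Groups were taken from the sample titles. The tests used edgeR 4.0.16 (R 4.3.3): filterByExpr by group, TMM factors, and glmQLFit and glmQLFTest on all 10 libraries with a mean per group, adjusted by Benjamini-Hochberg over 15032 genes. The common biological coefficient of variation was 0.136, and the scripts were tested on simulated data. Replicates of a group differed by more than counting noise (chi-square per degree of freedom 4.98 to 12.7). Overlapping genes came from RefSeq (GRCr8), matched by symbol for 41 of 41 genes, and no coordinates are given because the counts' build is unclear.

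Receptor genes were to be given in every library if they passed an adjusted p of 0.05 or an unadjusted p of 0.01, or if they led a family by counts. Other receptor genes were named after their values were seen. Most named genes of the other lists are given by log2 fold change only. The members, the gene lists and the tests were chosen with earlier results of these data known. Alternatives were DESeq2 1.42.0, RLE size factors, other filters, only the compared libraries, a replicate block, the fold limit and leaving out each library. Some items are not reported here.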

Additional observations from a re-analysis of the deposited data

How the results depend on the processing

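The count of receptor genes past the adjusted p was 0 in all 8 tests under DESeq2, RLE size factors, at least 10 counts in every library and each fit without 1 library, and 0 in the 7 comparisons of pairs with only the compared libraries or the fold limit. With no filter on low counts it was 1, Htr2c, for any difference among the 5 groups and 1, again Htr2c, for CSP-TTK21 against SKF, beside 5.55% and 0.622% of all genes, and the cause was not tested. Under the replicate block it was 0 throughout, and Htr2b in SKF+Aβ against SKF had a log2 fold change of 0.78. The labels do not say that a shared number marks shared animals, and same-numbered libraries correlated between -0.0691 and 0.237 in their deviations. Kcnj3 in SKF+Aβ+CSP-TTK21 against SKF passed under the replicate block (adjusted p = 0.0397), DESeq2 (adjusted p = 0.00218), no filter (adjusted p = 0.00290) and without SKF replicate 2 (adjusted p = 0.0393). Leaving out 1 library gave 30 to 31 measurable genes. The adjusted p of Htr2b in SKF+Aβ against SKF was 0.0872 to 0.145 in the edgeR alternatives on all 10 libraries, 0.229 with only the compared libraries and 0.112 to 0.285 without 1 library. With 2 libraries a group, the median half-width of the 95% limits was 0.685 log2 units, so changes well under 2-fold were mostly not detectable. These limits are not adjusted for the number of genes. Estimates beyond 2-fold went uncalled too, such as -1.07 for Chrna3 in SKF+Aβ+CSP-TTK21 against SKF (adjusted p = 0.343 in edgeR).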
